A study of Homo sapiens with 35 samples.

Results

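The genes described here are 10 genes that define plasma cells or are targets of myeloma therapy: IRF4, PRDM1, XBP1, POU2AF1, IKZF1, IKZF3, TNFRSF17, SDC1, CD38 and SLAMF7. They were taken by symbol from the protein-coding entries of a gene count table, 10 of 19665 such entries, and all 10 had enough reads to pass edgeR's filter on low counts, as did 12301 entries in all. The counts came from RPMI-8226, a human multiple myeloma cell line, after a 1 h pulse of 750 nM carfilzomib, a drug that blocks the proteasome, the protease complex that degrades ubiquitin-tagged proteins. Cells were washed, returned to drug-free medium and sampled for RNA sequencing at 6 time points (day 1, 2, 4, 6, 8 or 10), with 5 libraries per day and 5 more at day 0, 35 in all. The labels list carfilzomib for day 0 as well, whereas the study's methods place that collection before the pulse, and day 0 is used below as the baseline. All groups share this single cell line, and no untreated culture was carried in parallel among these libraries. Per the study's methods, the 5 libraries of a day were subcultures of the same expanded culture. Their spread then covers culture and library preparation and not separate experiments. Some of the study's figure legends instead speak of 5 independent experiments.

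Plasma cells are the antibody-secreting end stage of the B-cell lineage, and myeloma is their malignancy. IRF4 and PRDM1 (the repressor Blimp-1) switch the B-cell programme off and the plasma cell programme on, XBP1 expands the secretory pathway, and POU2AF1 is the B-cell coactivator of the octamer-binding factors. IKZF1 and IKZF3 (Ikaros and Aiolos) are zinc finger factors whose proteins are degraded when lenalidomide or pomalidomide binds cereblon. TNFRSF17 encodes BCMA, the receptor targeted by CAR T cells and bispecific antibodies, CD38 is bound by daratumumab and isatuximab, SLAMF7 by elotuzumab, and SDC1 encodes syndecan-1 (CD138), the proteoglycan by which plasma cells are recognised. Proteasome inhibitors are widely combined with agents against several of these targets.

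XBP1 is the member with a known stress-response element at its start, and its promoter is therefore shown. RefSeq promoter windows (GRCh38.p14) were matched for 6 of the 10 genes, 11 windows in all, and the 250 bases before each start were searched on both strands. TNFRSF17, IKZF3, POU2AF1 and SLAMF7 were not matched. The endoplasmic reticulum stress element, a pair of short boxes with free bases between them, was found in 26 of 35116 windows, or 0.074%, and among the members in 1 window of XBP1, chr22:28800570-28800819 on the minus strand. The fixed bases of the match are in capitals, and it lies between 52 and 33 bases before the start.
XBP1 promoter: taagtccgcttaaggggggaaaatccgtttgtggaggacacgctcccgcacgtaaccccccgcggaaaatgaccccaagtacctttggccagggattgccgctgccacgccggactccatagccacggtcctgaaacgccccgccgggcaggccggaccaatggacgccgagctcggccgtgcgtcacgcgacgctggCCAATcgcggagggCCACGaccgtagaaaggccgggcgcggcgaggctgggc
The letters of an interferon-stimulated response element (found in 3.02% of all windows), of the octamer (ATGCAAAT, 1.63%) and of the core of the unfolded protein response element (TGACGTGG, 0.612%) were not in the members' windows. These matches describe letters in a window and are not evidence of binding.

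Total counts per library ran from 6519392 to 10962890 with a median of 7643975, of which 5373835 to 9307889 fell on protein-coding entries. Levels are given below as CPM, edgeR's counts scaled to a common library total, here the TMM-adjusted total of the protein-coding entries, and a change as a log2 fold change with its standard error (SE) from a single edgeR quasi-likelihood fit over all 35 libraries. A gene is called changed where the adjusted p, after Benjamini-Hochberg over 17999 protein-coding entries, was at most 0.05, and deregulated where its absolute log2 fold change was also above 1. Of 7 T-cell markers, CD3D had no read at day 0 and CD2 averaged 0.0357 CPM, whereas CD8B averaged 194 CPM, rose to 311 CPM on day 1 and stood at 329 CPM on day 10. On day 1 it was the 1 gene of this list that rose, while 2 fell, among them CD3E from 3.35 to 0.754 CPM (log2 fold change -2.12, SE 0.34, adjusted p = 6.66e-07). The summed T-cell list, most of it CD8B, was 173 to 225 CPM at day 0 and 492 to 619 CPM on day 2. The myeloid list, with 5 of 7 genes having any read, summed to 3.82 CPM or less in the day 1 libraries and to 1.20 CPM or less at day 0. Among 8 epithelial and stromal markers, KRT18 averaged 295 CPM and EPCAM 58.7 CPM at day 0, COL1A1 stayed below 1 CPM on average, and the summed list was 314 to 381 CPM at day 0 and 403 to 432 CPM on day 1. The part of these marker genes in the results below was not tested.

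Day 1 held the deepest changes of the 10 genes, and they were uneven. BCMA and CD38 transcripts fell most, IRF4, SDC1 and IKZF3 fell less, IKZF1 and POU2AF1 rose, and PRDM1, XBP1 and SLAMF7 were not called. That is 7 of 10 genes called on day 1, 2 higher and 5 lower, where 52.7% of all entries tested were called (25.4% higher, 27.3% lower), and 2 deregulated genes, where 20.4% of all entries were. On day 2, 6 genes were higher and 2 lower, against 47.7% of all entries called (23.2% higher, 24.4% lower), and 1 gene was deregulated, against 15.3%. Day 4 had 4 members higher and 3 lower, against 39.1% of all entries (19% higher, 20.1% lower), and day 6 likewise 4 and 3, against 34.5% (17.5% higher, 17% lower). Day 8 had 4 in each direction, against 36.8% (18.2% higher, 18.6% lower), and day 10 had 5 higher and 2 lower, against 31.9% (16.1% higher, 15.8% lower). From day 4 on no member was deregulated, where 9.41%, 6.71%, 8.18% and 5.93% of all entries were on those 4 days in turn. These shares, and those beside the steps and related lists below, are over the 17999 protein-coding entries tested. Of these, 12301 passed the low-count filter, as all 10 members did. Entries with few reads are seldom called, so the share among entries that passed may be higher. That share was not computed. The members' median log2 fold change was -0.07 on day 1 and 0.14 on day 10, beside medians over all entries tested of -0.06 and -0.02. In bulk RNA, less RNA of a gene in every cell and fewer cells that carry it cannot be told apart.

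**Figure D1:**
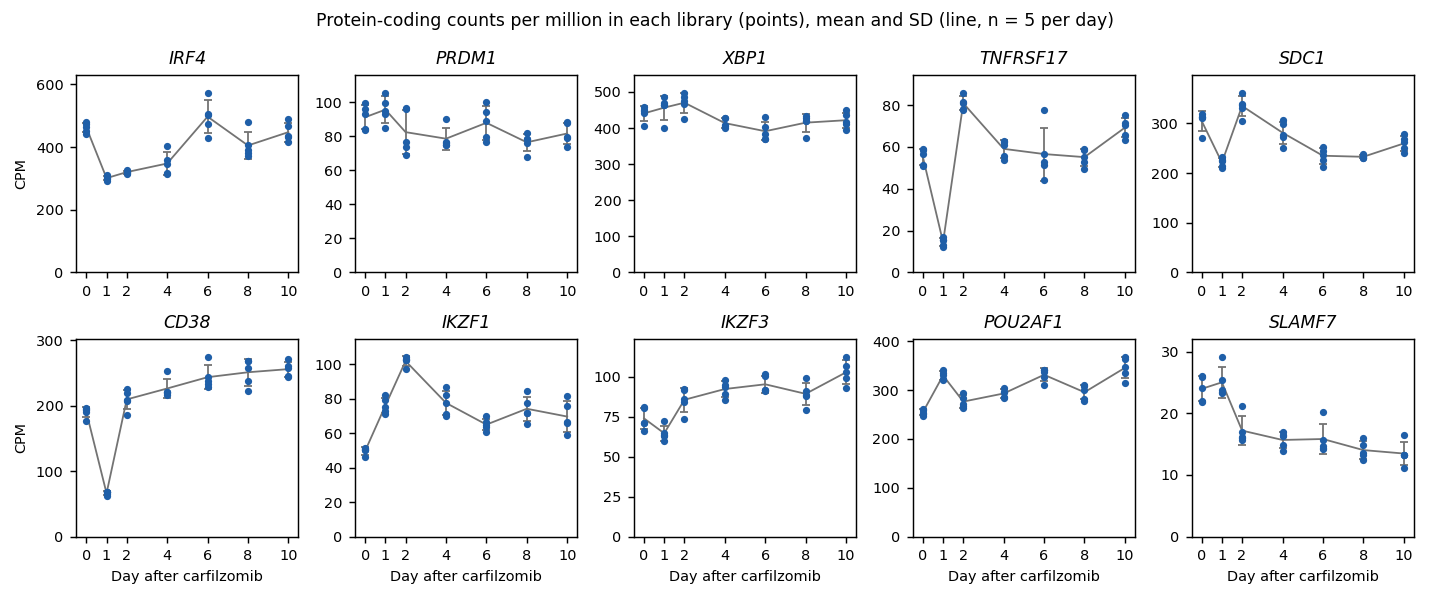
CPM (vertical axis, from 0) of the 10 genes in each library (points) by day after carfilzomib (horizontal axis), with the mean and SD of 5 libraries per day (line and bars). TNFRSF17 and CD38 dropped on day 1 to 14.5 and 66.1 CPM and were back at or above the day 0 level on day 2, whereas SLAMF7 fell from day 2 on.

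**Figure D2:**
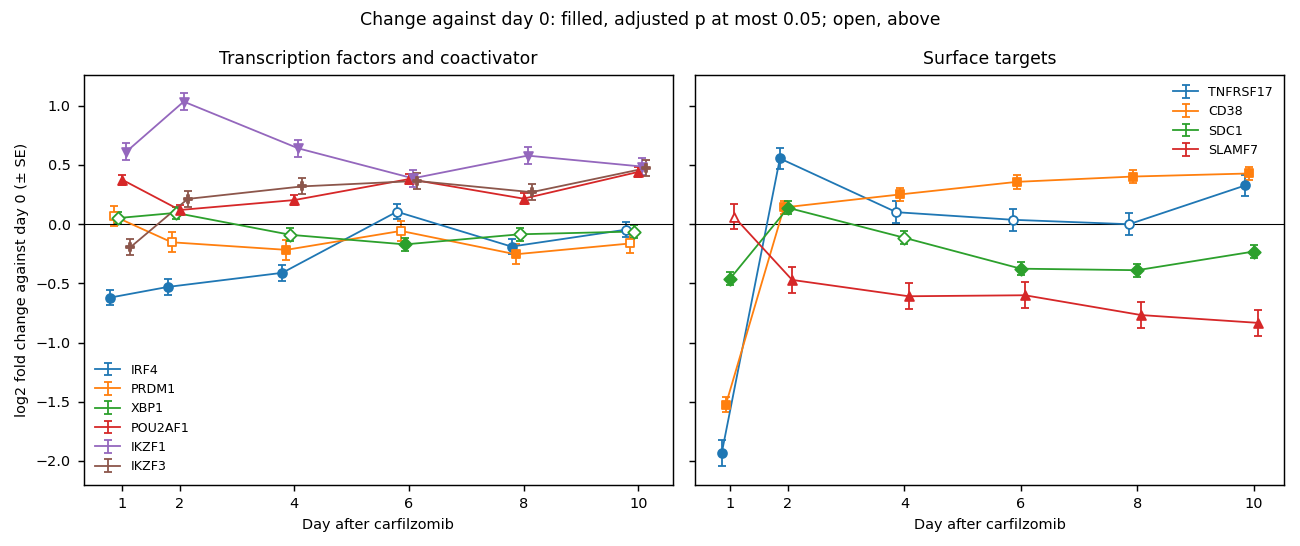
Log2 fold change against day 0 (vertical axis, bars are the SE) by day for the transcription factors and coactivator (left) and the surface targets (right), with filled symbols where the adjusted p was at most 0.05. IKZF1 and POU2AF1 were above zero on all 6 days, and TNFRSF17 had the lowest value, -1.93 on day 1.

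TNFRSF17 lies on chromosome 16 from 11965210 to 11968068, plus strand (GRCh38, GENCODE release 44, as for all positions below), and its 3-exon transcript encodes BCMA, which binds the survival ligands APRIL and BAFF. At day 0 the 5 libraries held 51.5, 58.4, 50.8, 56.5 and 58.9 CPM. On day 1 they held 12.9, 15.3, 15.2, 16.8 and 12 CPM, so that every day 1 library lay far below every day 0 library. The log2 fold change was -1.93 (SE 0.11, adjusted p = 4.18e-19), a level 0.262 times that of day 0. The transcript then overshot on day 2, with 77.6, 86.0, 81.6, 78.3 and 80.9 CPM, all above all day 0 libraries and 0.55 (SE 0.089, adjusted p = 1.15e-06) higher on the log2 scale. The step from day 1 to day 2 was 2.49 (SE 0.10, adjusted p = 7.85e-23). On days 4, 6 and 8 the means were 59.1, 56.6 and 55.1 CPM and the gene was not called, the 95% interval of the day 8 log2 fold change running from -0.19 to 0.18. Day 10 was again higher, with 70.7, 63.5, 71.2, 65.6 and 75.1 CPM and no overlap with day 0 (log2 fold change 0.33, SE 0.091, adjusted p = 0.00409). In order of mean level the days were 2, 10, 4, 6, 0, 8 and 1. Here and below, neighbours in such an order are said to differ where the adjusted p was at most 0.05. They differed between days 2 and 10 (adjusted p = 0.0363) and between days 8 and 1 (adjusted p = 4.48e-19). Days 10 and 4 were not called (adjusted p = 0.0986), although the day 10 libraries (63.5 to 75.1 CPM) lay above all day 4 libraries (53.5 to 62.7 CPM).

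CD38, an ectoenzyme that consumes NAD (chromosome 4, 15778275 to 15853232, plus strand, 8 exons), shared the fall on day 1 but followed another course afterwards. Day 0 libraries held 194, 177, 196, 194 and 190 CPM, and day 1 libraries 64.4, 62.2, 68.4, 67.7 and 68.0 CPM. All day 1 libraries lay far below day 0, and the log2 fold change was -1.53 (SE 0.062, adjusted p = 1.17e-23), a level 0.347 times that of day 0. From day 1 to day 2 the gene rose by 1.67 on the log2 scale (SE 0.062, adjusted p = 1.33e-24). The day 2 libraries, with 209, 225, 208, 186 and 220 CPM, still overlapped day 0 and the day 2 excess of 0.14 (SE 0.057, adjusted p = 0.0404) was slight. That call was lost with DESeq2 (adjusted p = 0.0693), with its size factors (0.0843), with the low-count filter (0.111), with a replicate block (0.0508) and without day 0 replicate 1, 2, 4 or 5 or day 2 replicate 1, 2, 3 or 5 (adjusted p 0.0559 to 0.191). Thereafter the mean rose through 226, 244 and 251 CPM on days 4, 6 and 8 to 256 CPM on day 10, where the libraries held 271, 244, 261, 245 and 258 CPM. On each of these 4 days all 5 libraries lay above all day 0 libraries, with log2 fold changes of 0.25 (SE 0.057, adjusted p = 0.00041) on day 4 and 0.43 (SE 0.057, adjusted p = 7.98e-08) on day 10. Neighbours in the order of level, days 10, 8, 6, 4, 2, 0 and 1, did not differ except between days 2 and 0 and between days 0 and 1.

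SDC1 (chromosome 2, 20200797 to 20225433, minus strand, 5 exons), whose heparan sulfate chains bind growth factors, fell on day 1, returned on day 2 and then settled below the baseline. The day 0 libraries held 312, 310, 270, 313 and 320 CPM and the day 1 libraries 210, 226, 232, 214 and 224 CPM. All day 1 libraries were below all day 0 libraries, by -0.46 on the log2 scale (SE 0.056, adjusted p = 1.78e-09). On day 2 the mean was 335 ± 20.2 CPM (SD, n = 5), 0.14 above day 0 (SE 0.055, adjusted p = 0.0356), and this call was lost with DESeq2 (adjusted p = 0.0518), with its size factors (0.0736), with the low-count filter (0.0904) and without day 0 replicate 1, 2, 3 or 4 or day 2 replicate 1, 2 or 3 (adjusted p 0.0607 to 0.183). Day 4 had 251 to 308 CPM and was not called (adjusted p = 0.094), but was without day 0 replicate 3 (adjusted p = 0.021) or day 4 replicate 1 (adjusted p = 0.0332). On day 8 the libraries were nearly equal at 232, 229, 231, 238 and 233 CPM, every one below day 0 (log2 fold change -0.39, SE 0.055, adjusted p = 1.99e-07). Day 6 was alike, with 212 to 253 CPM and a log2 fold change of -0.38 (SE 0.055, adjusted p = 4.28e-07). By day 10 the mean stood at 259 ± 15.0 CPM, with 4 of 5 libraries below all of day 0 and a log2 fold change of -0.23 (SE 0.055, adjusted p = 0.000847). With all transcript biotypes in the fit the day 10 value was -0.15 and not called (adjusted p = 0.264), and relative to the median protein-coding entry of that fit it was -0.24. In the order of days 2, 0, 4, 10, 6, 8 and 1, neighbours differed between days 2 and 0.

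SLAMF7 (chromosome 1, 160739057 to 160754821, plus strand, 7 exons), an adhesion receptor of plasma cells and natural killer cells, was the surface target with the latest onset and no return. Its day 0 libraries held 21.9, 26.0, 24.1, 21.8 and 25.8 CPM. Day 1 was not called, with 23.3 to 29.2 CPM and a 95% interval of the log2 fold change from -0.15 to 0.28. On day 2 the libraries held 16.9, 21.2, 16.1, 16.04 and 15.6 CPM, all below all day 0 libraries (log2 fold change -0.47, SE 0.11, adjusted p = 0.000273). This call, and with it the onset, was lost with all transcript biotypes in the fit, where the value was -0.28 (adjusted p = 0.105) and stood at -0.48 relative to that fit's median protein-coding entry. The step from day 1 to day 2 was itself called, at -0.53 (SE 0.11, adjusted p = 5.9e-05). Means of 15.7, 15.8 and 14.0 CPM followed on days 4, 6 and 8. On day 10 the libraries held 16.5, 13.2, 13.2, 11.2 and 13.2 CPM, 0.561 times the day 0 level (log2 fold change -0.83, SE 0.11, adjusted p = 8.37e-08). No library from day 2 to day 10 reached the lowest day 0 library. In the order of days 1, 0, 2, 6, 4, 8 and 10, neighbours differed between days 0 and 2.

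IRF4 (chromosome 6, 391739 to 411443, plus strand, 9 exons), on which myeloma cells are known to depend, was reduced until day 4 and then regained its level. Day 0 libraries held 472, 480, 443, 464 and 452 CPM, and day 1 libraries 304, 300, 292, 311 and 297 CPM. The groups were well apart and the log2 fold change was -0.62 (SE 0.065, adjusted p = 6.54e-11). Day 2 stayed low at 328, 315, 320, 319 and 318 CPM (log2 fold change -0.53, SE 0.065, adjusted p = 3.38e-09) and day 4 at 359, 402, 345, 319 and 313 CPM (log2 fold change -0.41, SE 0.065, adjusted p = 1.27e-06), again with every library below day 0. From day 4 to day 6 the transcript rose by 0.52 on the log2 scale (SE 0.065, adjusted p = 2e-07) to 430, 474, 505, 501 and 574 CPM. Day 6 was not called against day 0 (adjusted p = 0.231), nor was day 10 at 415 to 489 CPM (95% interval of the log2 fold change from -0.18 to 0.08). Day 8 lay between, at 371 to 479 CPM, and its log2 fold change of -0.19 (SE 0.065, adjusted p = 0.0173) lost the call without day 0 replicate 1, 2 or 4 or day 8 replicate 1, 3 or 5 (adjusted p 0.0506 to 0.104), with unscaled library sizes (adjusted p = 0.0862) and with all transcript biotypes in the fit (adjusted p = 0.498). In the order of days 6, 0, 10, 8, 4, 2 and 1, neighbours differed between days 8 and 4 (adjusted p = 0.0346).

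PRDM1 and XBP1 were the steadiest of the 10. PRDM1 (chromosome 6, 105993463 to 106109939, plus strand, 7 exons) held 99.3, 93.0, 96.0, 83.4 and 84.1 CPM at day 0 and 84.7 to 106 CPM on day 1. It was called lower on day 4 (74.9, 90.02, 76.3, 76.5 and 74.9 CPM, log2 fold change -0.22, SE 0.084, adjusted p = 0.036) and on day 8 (78.4, 78.1, 75.9, 81.6 and 68.0 CPM, log2 fold change -0.26, SE 0.084, adjusted p = 0.0141). Only the day 8 libraries lay wholly below day 0. The day 4 call was lost without day 0 replicate 1, 2 or 3 or day 4 replicate 1, 3, 4 or 5 (adjusted p 0.0677 to 0.157), and the day 8 call without day 0 replicate 1 (adjusted p = 0.0725) or day 8 replicate 5 (adjusted p = 0.0782). Both calls were also lost with unscaled library sizes (adjusted p = 0.377 on day 4 and 0.0562 on day 8) and with all transcript biotypes in the fit (adjusted p = 0.612 and 0.333), where day 1 became a call of higher level (log2 fold change 0.28, adjusted p = 0.0157). Day 2 was not called, but was without day 2 replicate 1 or 5 (adjusted p = 0.0344 in both). No neighbours in its order of days, 1, 0, 6, 2, 10, 4 and 8, differed at an adjusted p of at most 0.05.

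XBP1 (chromosome 22, 28794555 to 28800597, minus strand, 6 exons) is the factor whose mRNA is spliced outside the nucleus by the stress sensor IRE1, and the counts do not separate the spliced from the unspliced form. Day 0 libraries held 442, 449, 406, 458 and 447 CPM and day 1 libraries 399, 464, 469, 486 and 464 CPM. The groups overlapped and the 95% interval of the day 1 log2 fold change ran from -0.06 to 0.16. The single call was on day 6, with 371, 404, 382, 370 and 429 CPM and a log2 fold change of -0.17 (SE 0.053, adjusted p = 0.00956). Days 1 and 2 became calls of higher level when library sizes were left unscaled (log2 fold changes 0.17 and 0.22, adjusted p = 0.00237 and 7.77e-05), a scaling under which the median entry passing the low-count filter was also raised by 0.11 and 0.13. With all transcript biotypes in the fit the day 6 call was lost (log2 fold change -0.11, adjusted p = 0.43), and days 1 and 2 were called higher (0.26 and 0.28, adjusted p = 0.00791 and 0.00424). Relative to that fit's median protein-coding entry these 3 values were -0.18, 0.04 and 0.09. Day 2 was called as well with only the libraries of the 2 days compared (adjusted p = 0.035) and without day 2 replicate 4 (adjusted p = 0.05). Its order of days was 2, 1, 0, 10, 8, 4 and 6, with no neighbours that differed.

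IKZF1 (chromosome 7, 50304068 to 50405101, plus strand, 8 exons) was above day 0 on all 6 days. Day 0 libraries held 51.5, 50.6, 45.9, 50.1 and 50.4 CPM, day 1 libraries 75.1, 81.8, 79.4, 70.8 and 72.7 CPM, and day 2 libraries 103, 102, 104, 103 and 97.1 CPM. The level by day 2 was 2.05 times that of day 0, with a log2 fold change of 1.03 (SE 0.071, adjusted p = 4.25e-16), after 0.61 on day 1 (SE 0.073, adjusted p = 1.62e-09). It was the only member deregulated on day 2, and fell just short of that size, at 1.00, when low counts were filtered first. It then declined to 64.9 ± 3.31 CPM on day 6 (log2 fold change 0.39, SE 0.073, adjusted p = 3.87e-05) and stood at 65.6, 75.6, 66.2, 59.0 and 81.6 CPM on day 10 (log2 fold change 0.49, SE 0.073, adjusted p = 9.02e-07). On each day all 5 libraries exceeded all day 0 libraries. In the order of days 2, 4, 1, 8, 10, 6 and 0, neighbours differed at both ends, between days 2 and 4 (adjusted p = 9.55e-06) and between days 6 and 0.

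IKZF3 (chromosome 17, 39757718 to 39864312, minus strand, 8 exons), the relative of IKZF1, was called lower on day 1 and higher from day 2 on. Day 0 libraries held 80.2, 70.9, 81.0, 71.1 and 66.0 CPM and day 1 libraries 72.0, 62.6, 64.7, 63.5 and 59.9 CPM, which overlapped (log2 fold change -0.20, SE 0.070, adjusted p = 0.0164). The day 1 call was lost without day 0 replicate 3 (adjusted p = 0.0621) and with unscaled library sizes, and the value became 0.0126 (adjusted p = 1) where all transcript biotypes entered the fit. In that fit the median protein-coding entry rose by 0.21 more on day 1, and relative to that median IKZF3 was again at -0.20. Day 2 was higher by 0.21 (SE 0.067, adjusted p = 0.00801), a call lost without day 0 replicate 5 (adjusted p = 0.0527). On day 10 the libraries held 103, 92.9, 112, 107 and 99.0 CPM, all above day 0 (log2 fold change 0.47, SE 0.067, adjusted p = 2.9e-07). In the order of days 10, 6, 4, 8, 2, 0 and 1, neighbours differed between days 2 and 0 and between days 0 and 1.

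POU2AF1 (chromosome 11, 111352255 to 111455630, minus strand, 5 exons) was likewise higher on all 6 days, in steps that went up and down. At day 0 the libraries held 262, 248, 260, 253 and 251 CPM, on day 1 they held 341, 335, 323, 321 and 330 CPM, and on day 2 they held 284, 295, 267, 273 and 264 CPM. Every library after day 0 lay above every day 0 library. The log2 fold change was 0.37 on day 1 (SE 0.045, adjusted p = 1.88e-09) and 0.12 on day 2 (SE 0.045, adjusted p = 0.0263), and the latter call was lost with the low-count filter (adjusted p = 0.0861), with DESeq2's size factors (adjusted p = 0.0729) and without day 0 replicate 1, 2, 4 or 5 or day 2 replicate 1 or 2 (adjusted p 0.0562 to 0.159). Day 10, with 369, 335, 315, 347 and 363 CPM, had the largest excess, 0.44 (SE 0.045, adjusted p = 1.33e-10). The order was days 10, 6, 1, 8, 4, 2 and 0, with neighbours that differed between days 1 and 8 (adjusted p = 0.00257) and between days 2 and 0. Exons of an annotated gene on the opposite strand overlap IKZF1 and POU2AF1. The library kit marks strand, but the strand setting in counting is not given in the sources used here, so reads of these pairs could not be told apart.

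Seen from each time point to the next, the steps to days 1 and 2 held the most calls among the 10 genes. Between days 1 and 2, 8 of 10 genes were called, 5 higher and 3 lower, beside 39.6% of all entries (20.2% higher, 19.4% lower), and TNFRSF17 and CD38 changed by over 1 on the log2 scale, as did 10.3% of all entries. The 3 lower genes were POU2AF1, SLAMF7 and PRDM1, and the PRDM1 step was lost without day 1 replicate 3 or 4 or day 2 replicate 2, 3 or 4 (adjusted p 0.0666 to 0.154), with unscaled library sizes (0.0529) and with only the libraries of the 2 days (0.0501). Between days 2 and 4, 4 genes fell (XBP1, TNFRSF17, SDC1 and IKZF1) and none rose, beside 30.6% (13.9% higher, 16.7% lower, and 3.09% deregulated). The XBP1 step was lost without day 2 replicate 2 (adjusted p = 0.0807) or day 4 replicate 5 (adjusted p = 0.0651). CD38 and POU2AF1 were called higher with DESeq2 (adjusted p = 0.0443 and 0.0239). With the low-count filter CD38, IRF4 and POU2AF1 were called higher (0.0266, 0.045 and 0.0135), as each was in some fits with a library left out. Between days 4 and 6, IRF4 and POU2AF1 rose and SDC1 and IKZF1 fell, beside 12.1% (6.09% higher, 5.98% lower, and 0.628% deregulated). With unscaled library sizes the POU2AF1 step was lost (adjusted p = 0.0821) and XBP1 was called lower (adjusted p = 0.0318). TNFRSF17 was called lower without day 6 replicate 5 (adjusted p = 0.0474). From day 6 to day 8, IRF4 (-0.29, SE 0.064, adjusted p = 0.00468) and POU2AF1 (-0.17, SE 0.044, adjusted p = 0.0308) fell, beside 2.56% (1.03% higher, 1.53% lower, and 0.128% deregulated). The POU2AF1 step was lost without day 6 replicate 1, 2, 3 or 5 or day 8 replicate 2, 3 or 4 (adjusted p 0.0553 to 0.157) and with DESeq2's size factors (0.051), and the IRF4 step without day 6 replicate 5 (adjusted p = 0.0553). With only the libraries of days 6 and 8 both were lost (adjusted p = 0.163 for POU2AF1 and 0.0628 for IRF4). From day 8 to day 10, TNFRSF17 (0.33, SE 0.090, adjusted p = 0.0121), IKZF3 (0.20, SE 0.066, adjusted p = 0.041) and POU2AF1 (0.23, SE 0.044, adjusted p = 0.000358) rose, beside 10.1% (5.08% higher, 4.97% lower, and 0.678% deregulated). The IKZF3 step was lost without day 10 replicate 1, 3 or 4 or day 8 replicate 2, 4 or 5 (adjusted p 0.0655 to 0.138). It was also lost with only the libraries of the 2 days (0.0855). SDC1 was called higher with DESeq2 (adjusted p = 0.03), the low-count filter (0.0378), unscaled library sizes (0.0207) and without day 10 replicate 3 (0.0366). IRF4 was called higher without day 8 replicate 4 (adjusted p = 0.0249).

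Levels can be set side by side between genes only per length. An entry pools the protein-coding transcripts of a symbol but was divided by the canonical length alone. The order below depends on that choice. Per kilobase of the canonical transcript, XBP1 was the most abundant member at day 0 with 246 ± 11.2 CPM per kb (SD, n = 5). SDC1 (96.3 CPM per kb), POU2AF1 (88.6), IRF4 (87.0) and TNFRSF17 (62.0) formed a middle group, followed by CD38 (33.9) and PRDM1 (17.7). SLAMF7, IKZF1 and IKZF3 were lowest, at 8.85, 7.95 and 7.55 CPM per kb. On this scale TNFRSF17 stood above CD38 at day 0 and on day 1, when they held 16.2 and 11.8 CPM per kb, and on day 10, with 77.7 and 45.5. SLAMF7 ended at 4.97 CPM per kb, the lowest level of any surface target.

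The table also splits a symbol by transcript biotype, and 9 of the 10 genes had entries other than protein-coding, 13 in all, with none for TNFRSF17. Against day 0, 3 of 13 were lower on day 1 and none higher, where 21.9% of the 65717 entries of all biotypes were called. From day 2 on, 2 were higher at each time point and 1 or 2 lower, beside 18.4%, 14.2%, 11.5%, 12.8% and 10.3% of all entries called at these time points in turn. The fit over all biotypes used its own scaling, under which the median protein-coding entry was raised, relative to the fit above, by 0.21, 0.19, 0.13, 0.06, 0.11 and 0.09 at the 6 successive time points.

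CD38 accounted for the entries that rose. Its nonsense-mediated decay entry, a transcript class that is degraded without making full-length protein, held 17.5, 20.0, 6.72, 16.5 and 17.4 CPM of all biotypes at day 0 and 10.0, 10.1, 7.43, 1.53 and 5.24 CPM on day 1, lower by -1.16 on the log2 scale (SE 0.25, adjusted p = 0.000371). On day 2 it held 28.6, 33.5, 37.9, 32.2 and 27.7 CPM, above every day 0 library, and it stayed 1.04 to 1.40 above day 0 on the log2 scale from day 2 to day 10. The retained-intron entry of CD38 was at 5.35 ± 1.12 CPM on day 0 and 5.65 ± 1.38 CPM on day 1, where it was not called, and at 12.9 ± 2.33 CPM on day 2 (log2 fold change 1.27, SE 0.18, adjusted p = 2.22e-07). It remained 1.19 to 1.35 above day 0 through day 10. The share of CD38 counts outside the protein-coding entry was 12.6 ± 2.46% at day 0 and 17.7 ± 5.65% on day 1. It was 19.9 ± 2.29% the day after, and 19.4 ± 2.30% at the last time point. On days 2 to 10 each library was above all day 0 libraries in this share.

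The processed-transcript entry of IRF4, a class without an open reading frame, was lower on all 6 days. It held 6.86, 5.88, 7.50, 4.199 and 6.31 CPM at day 0, 2.06, 1.105, 1.52, 2.30 and 2.24 CPM on day 1 and 2.91, 1.68, 2.60, 1.57 and 4.89 CPM on day 10. The day 1 log2 fold change was -1.73 (SE 0.33, adjusted p = 5.27e-05) and that of day 10 was -1.17 (SE 0.32, adjusted p = 0.00957), although the protein-coding entry of IRF4 was not called on days 6 and 10. The XBP1 retained-intron entry went from 51.0 ± 4.46 CPM to 39.6 ± 6.95 CPM on day 1 (log2 fold change -0.36, SE 0.13, adjusted p = 0.0318), and the share of XBP1 counts outside the protein-coding entry from 13.3 ± 1.61% to 9.12 ± 2.23%. PRDM1's retained-intron entry, at 2.34 ± 0.56 CPM on day 0, was called lower on days 2, 6 and 8, with counts of 20 reads or fewer per library at day 0. Reads of such overlapping transcripts were divided by estimation, so these entries are less certain than the protein-coding ones.

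**Figure D3:**
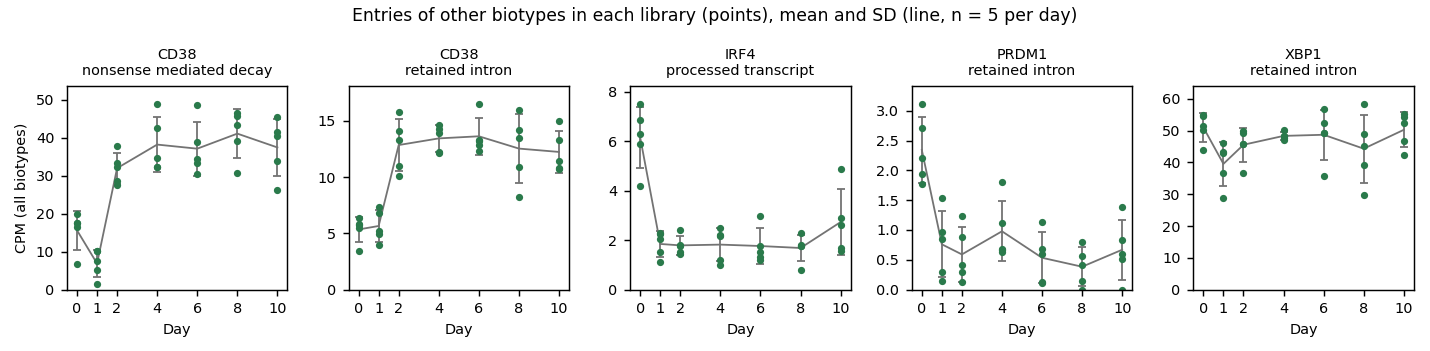
CPM of all biotypes (vertical axes, from 0) for 5 entries of the genes that are not protein-coding, by day, with each library as a point and the mean and SD of 5 libraries as line and bars. Both CD38 entries were higher from day 2 on, and the IRF4 processed transcript went from 6.15 to 1.84 CPM on average between day 0 and day 1.

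The partners of BCMA went both ways on day 1. Of 10 genes for BCMA's ligands, sister receptors and the gamma-secretase that cleaves BCMA from the cell surface, 3 were higher and 4 lower on day 1 (all entries 25.4% and 27.3%), with a median log2 fold change of -0.02, and none higher and 3 lower on day 10 (16.1% and 15.8%). TNFSF13, the ligand APRIL, went from 26.0 to 18.0 CPM on day 1 (log2 fold change -0.52, SE 0.09, adjusted p = 1.77e-06), and TNFSF13B, the ligand BAFF, averaged between 0.267 and 1.19 CPM over the days. The receptor TNFRSF13B (TACI) was at 118 CPM at day 0 and 99.7 CPM on day 1 (log2 fold change -0.24), and TNFRSF13C (the BAFF receptor) went from 97 to 20 reads in all. Among gamma-secretase subunits, PSENEN rose from 27.8 to 54.0 CPM on day 1 (log2 fold change 0.96, SE 0.09, adjusted p = 6.32e-12). On that day APH1A rose by 0.24, NCSTN fell by 0.14, and APH1B was not called. On day 10 APH1B was lower, at 0.631 against 1.52 CPM (log2 fold change -1.21, SE 0.47, adjusted p = 0.0401). It had 192 reads in all libraries together, and its day 10 libraries overlapped day 0. PSEN2 rose by 0.35 on day 1 and was below day 0 from day 2 on, at 10.98 CPM on day 6 against 19.3 CPM (log2 fold change -0.81).

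Of 19 surface antigens of other myeloma therapies, 11 were lower and 4 higher on day 1 (all entries 27.3% and 25.4%), with a median log2 fold change of -0.82 beside -0.06 over all entries. On day 10, 7 were lower and 4 higher (15.8% and 16.1%), with a median of -0.22 beside -0.02. GPRC5D, the target of talquetamab, went from 3.64 to 1.34 CPM on day 1 (log2 fold change -1.43, SE 0.28) and rose to 11.3 CPM on day 10 (log2 fold change 1.63, SE 0.22, adjusted p = 5.95e-08), the largest excess of this list on that day. FCRL5 had 49 reads in the 5 libraries of day 0 and 1 read in those of day 1, a ratio per protein-coding read of 0.0209. The exact Poisson interval, from 0.000519 to 0.122, covers counting error only. FCRL5 had 22 reads on day 2 and 61 on day 4 (ratio 1.24, interval 0.837 to 1.84). On day 10 it had 44 reads (ratio 0.865, interval 0.562 to 1.33). CD48 and LY9, relatives of SLAMF7 named after their values were seen, were already lower on day 1. CD48 went from 21.2 to 4.02 CPM and LY9 from 23.4 to 8.44 CPM (log2 fold changes -2.39 and -1.47, SE 0.13 each). Other relatives in the list are not given here. BST2, an interferon-induced membrane protein, rose from 174 to 484 CPM (log2 fold change 1.48, SE 0.06, adjusted p = 6.51e-24).

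**Figure D4:**
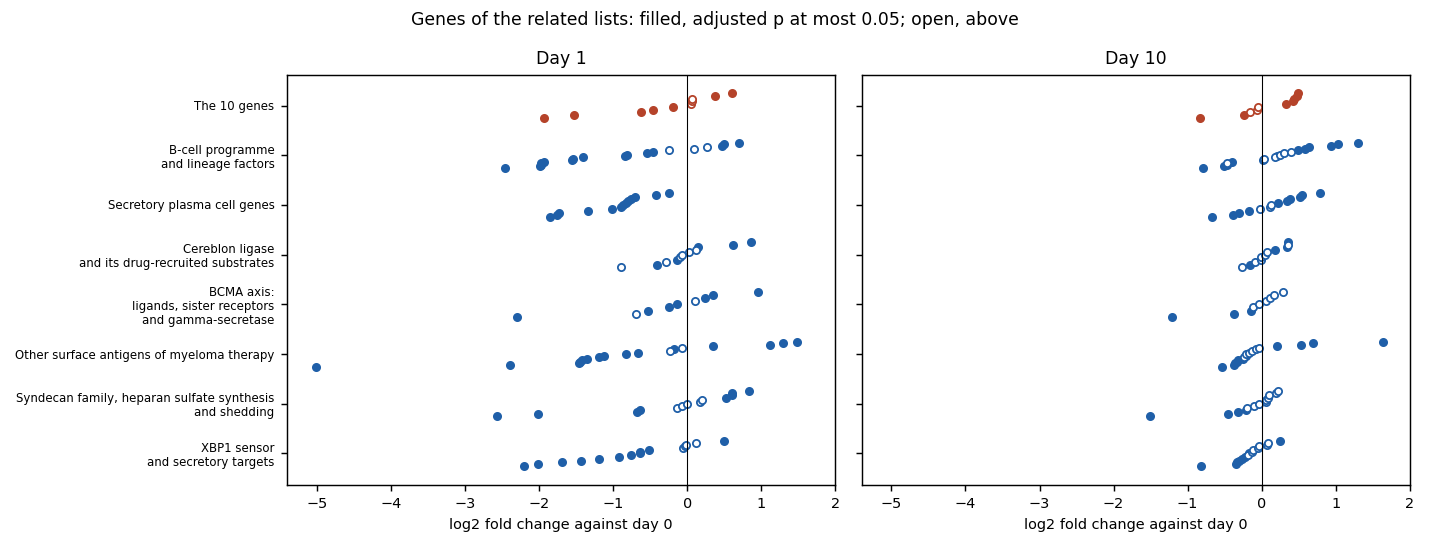
Log2 fold change against day 0 (horizontal axis) on day 1 and day 10 for the 10 genes and for related gene lists, each point a gene with a mean log2 CPM above 0, filled where the adjusted p was at most 0.05. On day 1 all plotted genes of the secretory plasma cell list were below zero, with 13 of the 14 listed called lower, and on day 10 that list had 6 genes higher and 4 lower.

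Genes around cereblon, the ubiquitin ligase subunit through which IKZF1 and IKZF3 proteins are degraded, were called on day 1 about as often as all entries. CRBN itself was at 29.9 CPM at day 0 and 22.6 CPM on day 1 (log2 fold change -0.41, SE 0.11, adjusted p = 0.00123) and was not called later. Of the 11 genes of this list, 3 rose and 2 fell on day 1 (all entries 25.4% and 27.3%). On day 2 the list had 2 genes that rose and 6 that fell (23.2% and 24.4%), and by day 10 there were 3 that rose and 1 that fell (16.1% and 15.8%). RBX1, the RING subunit of the ligase, rose most, from 33.7 to 61.3 CPM on day 1 (log2 fold change 0.87, SE 0.09). IKZF4 had the lowest values, -0.89 on day 1 and -0.27 on day 10, and was not called.

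Genes of syndecan's family and of its heparan sulfate went both ways on day 1, 4 higher and 4 lower of 16 (all entries 25.4% and 27.3%). XYLT1, which starts the sugar chain, fell from 26.6 to 4.48 CPM (log2 fold change -2.57, SE 0.12, adjusted p = 1.24e-21), and HS6ST1, a sulfotransferase, rose from 48.4 to 86.1 CPM (log2 fold change 0.83, SE 0.07). On day 10 the list held 4 lower genes and none higher (all entries 15.8% and 16.1%), with SDC3 lowest at 4.21 against 11.98 CPM (log2 fold change -1.51, SE 0.18).

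Of 15 genes for XBP1's activating sensor and secretory targets, 10 were lower, 1 higher and 4 not called on day 1 (all entries 27.3% lower, 25.4% higher). In the middle of the course 12, 12, 11 and 12 were lower at the successive time points (all entries 24.4%, 20.1%, 17% and 18.6%), and at day 10 there were 7 lower, 1 higher and 7 not called (15.8% and 16.1%). ERN1, which encodes IRE1, went from 619 to 153 CPM on day 1 (log2 fold change -2.02, SE 0.08, adjusted p = 1.57e-23) and was at 544 CPM on day 10. HERPUD1, a factor of endoplasmic reticulum degradation, fell from 971 to 211 CPM (log2 fold change -2.20, SE 0.06, adjusted p = 1.62e-28). DNAJB9, a chaperone partner, was still lower on day 10, at 99.7 against 176 CPM (log2 fold change -0.82, SE 0.09). ATF6, a parallel sensor, was the 1 higher gene on day 1 (log2 fold change 0.49, SE 0.05).

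Of 14 secretory plasma cell genes, 13 fell and none rose on day 1 (all entries 27.3% and 25.4%), with a median log2 fold change of -0.88 beside -0.06 over all entries, led by TXNDC5, a disulfide isomerase, at 903 against 3249.6 CPM (log2 fold change -1.85, SE 0.07). PIM2, a kinase on which myeloma cells depend, fell least (-0.25, SE 0.05), and reached 1824 against 1061 CPM on day 10 (log2 fold change 0.78, SE 0.05, adjusted p = 4.49e-16). ELL2, an elongation factor that favours secreted antibody mRNA, was lowest on day 10 (-0.67, SE 0.07). By then 6 genes of the list were higher and 4 lower (all entries 16.1% and 15.8%).

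Of 23 genes of the B-cell programme and lineage factors, 3 rose and 13 fell on day 1 (all entries 25.4% and 27.3%). By day 10 there were 7 that rose and 4 that fell (16.1% and 15.8%). The medians on these 2 days were -0.84 and 0.25, beside -0.06 and -0.02 over all entries. POU2F2, an octamer-binding partner of POU2AF1, fell from 9.57 to 1.73 CPM on day 1 (log2 fold change -2.47, SE 0.22, adjusted p = 6.57e-13). ETS1 rose from 2.42 to 3.88 CPM on that day (log2 fold change 0.70, SE 0.29, adjusted p = 0.0356). On day 10, CD79A, a chain of the B-cell receptor, was at 3.22 against 1.28 CPM (log2 fold change 1.30, SE 0.28), and ZBTB20 was lowest at 5.41 against 9.34 CPM (log2 fold change -0.80, SE 0.27).

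The likeness of time courses was measured as the root-mean-square difference between the 6 log2 fold changes against day 0 of a member and of each of the 12301 filtered entries. XBP1 was nearest to WTAP at 0.0149 and to PPP1R8 at 0.0320, IKZF3 to NFYB at 0.0162 and PUM2 at 0.0608, and IKZF1 to AAAS at 0.0378 and DBI at 0.0523. For PRDM1 they were PPTC7 (0.0410) and ZNF267 (0.0570), for POU2AF1 they were BOD1 (0.0428) and SOS1 (0.0553), and for SLAMF7 they were NACC2 (0.0715) and VPS35 (0.107). SDC1 was nearest to FOXRED2 (0.0717) and C11orf31 (0.0969), IRF4 to TRMT10B (0.0890) and TRIM56 (0.0912), and CD38 to PTPRG (0.0911) and MACROD2 (0.125). TNFRSF17 stood furthest from any other gene, with SPATC1 at 0.259 and SORBS3 at 0.261. Among the 10 genes themselves the nearest pairs were PRDM1 with XBP1 at 0.147 and IKZF3 with POU2AF1 at 0.242. All 6 fold changes of a gene share the day 0 libraries, and these distances are descriptions.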

How the data were processed

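RNA of 35 RPMI-8226 libraries (7 time points, 5 each) was measured. Per the study's methods and the submitters' notes, the authors estimated transcript abundance with Kallisto 0.44.0 against GENCODE on GRCh38.p12 with an adjustment for GC bias, and deposited length-adjusted estimated counts from tximport, 1 row per symbol and biotype. The NEBNext Ultra II Directional kit marks strand, and the strand setting in counting is not given in the sources used here. Estimation divides reads among overlapping transcripts, and length adjustment can shift levels between genes.

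Groups came from the time point label. The deposited estimated counts were used without rounding. They were tested in R 4.3.3 with edgeR 4.0.16 (TMM, glmQLFit and glmQLFTest, 35 libraries, day as the only term). The fit covered the 17999 of 19665 protein-coding entries that had a read, with Benjamini-Hochberg adjustment. The SE is the fitted log2 fold change, before edgeR's small prior count is added, divided by the square root of F. The printed log2 fold changes include that prior count. CPM used TMM-scaled library sizes, and lengths came from GENCODE release 44. Depth, between 6519392 and 10962890 counts per library, limits precision for genes with few reads.

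The members and lists were chosen with earlier results of these data known. Named genes were the 10 members on every day, the listed genes with the largest and smallest log2 fold change on days 1 and 10 among those with mean log2 CPM above 0, the partners and parallel targets of BCMA, CRBN, GPRC5D and FCRL5, and for each member the 2 entries with the most similar course. CD3D, CD2, KRT18, COL1A1, CD48, LY9 and ERN1 were named after their values were seen. Alternatives were DESeq2 1.42.0, its size factors in edgeR, no scaling factors, a low-count filter, a replicate block, the 10 libraries of the days compared, all biotypes, a stricter fold cutoff, and each library left out. Those for the other biotypes, apart from the protein-coding entries in their fit, were added after the data were seen. Counts were simulated for 16593 entries, day 1 against day 0. The test recovered 99 of 100 changes of 4-fold and 60 of 100 of 1.5-fold, and called 8 of 16393 unchanged entries. The simulated libraries were independent, and the changed entries were few and not low in counts. In the data 52.7% of entries were called on day 1, so these rates may not hold there. A gene of the lists is not reported here by name.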

Additional observations from a re-analysis of the deposited data

Results flagged for a closer look

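In 8 of the 70 groups of 5 libraries (10 genes on 7 days), the highest or lowest library stood apart from the other 4 by more than Dixon's 95% critical value allows, where chance gives about 1 in 20 groups. PRDM1 on day 4 was 90 CPM in replicate 2 and 74.9 to 76.5 CPM in the others. CD38 on the same day was 253 CPM in replicate 2 and 217 to 222 CPM in the others. SDC1 at day 0 was 270 CPM in replicate 3 against 310 to 320 CPM, and IKZF1 at day 0 was 45.9 CPM in the same replicate against 50.1 to 51.5 CPM. XBP1 was low in replicate 1 on day 1, at 399 against 464 to 486 CPM, and low in replicate 1 on day 8, at 371 against 419 to 434 CPM. SLAMF7 was high in replicate 2 on day 2, at 21.2 against 15.6 to 16.9 CPM, and in replicate 3 on day 6, at 20.2 against 14.2 to 15.7 CPM.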

How the results depend on the processing

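For the counts of called members in the alternative fits of this section, the share of all entries called in the same fit was not computed. Whether such a count moved with that share was therefore not tested. The count on day 2 against day 0 was 8 as reported, 5 with DESeq2's size factors in edgeR and 5 with the low-count filter. The count for day 4 against day 2 was 4 as reported and 7 with that filter, and for day 8 against day 6 it was 2 as reported, 1 with those size factors and 0 with only the libraries of the 2 days compared. With the cutoff raised to a log2 fold change of 2 in size, 0 genes were deregulated on day 1 and 0 on day 2, and with the low-count filter 0 on day 2. The log2 fold change of IKZF3 on day 1 changed sign to 0.0126 with all biotypes in the fit (adjusted p = 1), from -0.20. Of 60 log2 fold changes against day 0, DESeq2 changed the call of 2, its size factors and the low-count filter 3 each, and unscaled library sizes 6, with no called sign reversed. All biotypes in the fit changed 10, of which 6 lost the call, 3 gained one and 1, IKZF3 on day 1, was reversed.

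With each library left out in turn, members called on day 1 numbered 6 to 7, on day 2 between 5 and 9, on day 4 between 6 and 7, on days 6 and 10 always 7, and on day 8 between 6 and 8. The 5 on day 2 came without day 0 replicate 1, 2, 4 or 5 or day 2 replicate 2. The count for day 8 against day 6 was 0 to 2, with 0 without day 6 replicate 5 and 1 without day 6 replicate 1, 2 or 3 or day 8 replicate 2, 3 or 4. No call changed direction in these 35 fits.

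Replicate numbers recur on every day, and no label says that a number marks a shared culture. Over 105 same-number pairs, deviations from the day means correlated at 0.00489 on average (-0.123 to 0.136), with 1 pair above 0.1, so the numbers were not treated as pairs. However, 14 of 35 libraries correlated best with their own number, more than the 1 in 5 that chance gives. The study's methods give 5 subcultures for RNA sequencing, collected from day 0 to day 10. Libraries of different days can therefore come from the same subculture, and the main fit, with day as its only term, does not allow for this. With a replicate block, members called on days 1, 2, 4, 6, 8 and 10 were 7, 7, 7, 7, 8 and 7, and CD38 on day 2 lost its call (adjusted p = 0.0508).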
